A study of Mus musculus with 23 samples.

Results

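Gene expression was compared between 6 livers of mice that had received 40 oral treatments with 1-methoxy-3-indolylmethyl alcohol (1-MIM-OH) and 6 livers of mice that had received the vehicle for the same 90 d. These 12 livers were the members of a series of 23 arrays that carry the 90 d label, and each array came from 1 animal. All 12 mice were males labelled hemizygous FVB/N-SULT1A1/2 with an age of 5 weeks, so the controls carried the human transgenes too. Whether 5 weeks was the age at the first treatment is not stated, and all 23 arrays carry that age. The treated mice were given 26 mg/kg body mass 3 times a week, and the controls glyceryl trioctanoate alone. Livers were taken 24 h after the last treatment. The other 11 arrays came from mice treated for 21 d (10 treatments; 5 treated and 6 vehicle livers) and are used here for the spread and for 1 comparison. Going by the series title, the question was whether the liver profile is like that of known genotoxic hepatocarcinogens. RNA was hybridised to Affymetrix Mouse Genome 430 2.0 arrays, and all signals below are log2 values on which a difference of 1 is a 2-fold change. Whole liver was used, so fewer cells of a type and less RNA per cell cannot be told apart for any gene.

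1-MIM-OH arises when neoglucobrassicin, an indole glucosinolate of cabbage and related plants, is broken down. Sulfotransferases attach sulfate to its alcohol group, and the resulting ester reacts with DNA. The human SULT1A1 and SULT1A2 transgenes supply such enzymes in these mice. DNA damage stabilises p53, a transcription factor that induces Cdkn1a to stop the cell cycle, Mdm2 to limit p53 itself, and genes of cell death and repair. In liver, p53 targets are among the transcripts that respond most regularly to chemicals that bind DNA.

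The 12 arrays had medians between 5.53 and 5.61, and arrays of 1 group correlated at 0.987 to 0.996 across probe sets. The tissue label was met by the defining genes of hepatocytes: Alb had a mean of 15.26 in treated and 15.27 in vehicle livers, close to the highest value of any probe set, 15.41. None of the 28 measured hepatocyte markers passed the limma test described below (1 had an unadjusted p under 0.05), and their median change was -0.02. A control for shortened RNA, the 3′ minus 5′ signal of Gapdh, averaged 0.53 for the treated livers (SD 0.40, n = 6) and 0.50 for the vehicle livers (SD 0.15, n = 6; difference 0.03, 2-sided exact permutation p = 0.909). Treated replicate 6 was highest with 1.24, against 0.63 for the next treated liver, and without it the difference was -0.11 (exact permutation p = 0.338). Results that rest on that liver are therefore also given without it, or without all 5 arrays of the series over 0.9, of which 4 belonged to the treated 21 d group.

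After 40 treatments, 136 of 18193 genes passed, 91 higher and 45 lower in treated livers, and the largest changes were rises. A gene passed when the adjusted p of its brightest probe set was under 0.05 in limma's moderated test over 45037 probe sets. These counts amounted to 0.500% of genes for rises and 0.247% for falls, and 226 probe sets passed in all (0.502%, of which 149 were higher and 77 lower). The change was at least 2-fold for 13 risen and 9 fallen genes and under 1.5-fold for 46 risen and 18 fallen genes. In 56 risen and 29 fallen genes all 6 treated livers lay beyond all 6 vehicle livers; over all genes tested, the groups were apart in this way for 0.967% (higher) and 0.385% (lower). The median change over all genes was 0.02, and 57.3% of all genes were above 0.

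The number of calls moved with single arrays. The 226 probe sets became 389 without treated replicate 6, 340 without treated replicate 3 and 376 without replicate 2 of the treated 21 d group, whose arrays enter the estimate of the spread. They became 119, 134 and 141 without treated replicates 2, 4 and 5, and 131, 140, 147, 114 and 143 without vehicle replicates 1, 3, 4, 5 and 6 at 90 d. Without the 5 arrays with a Gapdh difference over 0.9 there were 761, and with the 12 arrays at 90 d alone 149. In genes, 170 were higher and 66 lower without treated replicate 6, and 127 of the 136 were among them. Of the 136 genes, 61 (40 risen and 21 fallen) passed in each of the 23 fits that left out 1 array, and 67 passed with the 12 arrays at 90 d alone. None of the 136 changed direction under any of the alternatives tried.

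Targets of p53 held the largest rise of all genes and 11 of the 91. Of 46 measured targets, 11 rose, 0 fell and 35 did not pass, beside 0.500% of all genes that rose and 0.247% that fell. At an unadjusted p under 0.05, 23 of the 46 were higher and 0 lower, against 1424 and 772 of all 18193 genes. The median change of the 46 was 0.18, 40 of them were above 0, and the median over all genes was 0.02. In 9 of the 11 the treated and vehicle livers did not overlap. The list was drawn up with earlier results of these data known, so its count describes these livers and is no independent evidence of direction.

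Cdkn1a, which encodes the cell cycle inhibitor p21, ranged from 9.01 to 11.79 in the treated livers (median 10.68) and from 6.41 to 7.27 in the vehicle livers (median 6.66). Every treated liver was above every vehicle liver, although treated replicates 3 and 6, at 9.01 and 9.15, were far below the other 4. The gene rose 12.7-fold (log2 fold change 3.67 ± 0.34 SE, limma adjusted p = 2.13e-06). Its promoter is shown because it was the only one among the 72 risen genes with a RefSeq promoter window to hold a full p53 site, defined as 2 matches to the p53 half-site consensus with at most 13 bases between them. The stretch below is GRCm38.p6 chr17:29090879-29090978, plus strand, read from RefSeq's window of 250 bases before to 50 after the start. Among all 14452 genes with a window, 8 held a full site by this definition. Capitals mark the half-sites, which span bases 73 to 42 before the start. Only strict matches to the consensus are in capitals, and near matches stay in lower case.
Cdkn1a: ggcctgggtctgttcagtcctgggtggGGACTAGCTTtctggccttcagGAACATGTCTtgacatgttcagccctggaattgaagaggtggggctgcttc

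Several of the risen p53 targets encode receptors, signalling proteins or enzymes outside the cell. For Eda2r, a TNF-type receptor that binds ectodysplasin A2, the treated livers held 6.37 to 7.98 (median 7.27) and the vehicle livers 4.56 to 5.22 (median 4.72). The groups were separated by more than 1 log2 unit, and the gene rose 5.53-fold (log2 fold change 2.47 ± 0.27 SE, adjusted p = 1.99e-05). Phlda3, which keeps Akt from the membrane, ranged from 7.69 to 9.20 in the treated livers (median 8.65) and from 6.59 to 6.71 in the vehicle livers (median 6.65). Its vehicle livers were nearly equal, and it rose by 1.84 ± 0.19 (SE, adjusted p = 1.18e-05). Ddit4l, an inhibitor of mTOR signalling, ranged from 5.90 to 7.31 in the treated livers (median 6.70) and from 5.06 to 5.96 in the vehicle livers (median 5.46). Treated replicate 3 overlapped the vehicle range here, and the gene rose by 1.15 ± 0.20 (SE, adjusted p = 0.00691). Plk2, a polo-like kinase, rose by 0.67 ± 0.13 (SE, adjusted p = 0.0123), with treated livers at 8.73 to 9.76 and vehicle livers at 8.44 to 8.78. Only treated replicate 6 lay within the vehicle range. Sulf2, an extracellular sulfatase that trims heparan sulfate, rose by 0.63 ± 0.12 (SE, adjusted p = 0.00998). When the spread was taken from the 12 arrays at 90 d alone, the calls of Plk2 and Sulf2 ended, with adjusted p at 0.0504 and 0.0675.

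The other risen targets act on the cell cycle, RNA, DNA or metabolism. Ccng1, cyclin G1, ranged from 10.46 to 11.38 in the treated livers (median 10.96) and from 9.75 to 10.20 in the vehicle livers (median 10.04). All 3 of its probe sets passed, the groups did not overlap, and it rose by 0.93 ± 0.12 (SE, adjusted p = 0.000207). Zmat3, a zinc finger protein that binds RNA, ranged from 7.15 to 8.33 in the treated livers (median 7.92) and from 6.26 to 7.06 in the vehicle livers (median 6.76) and rose by 1.01 ± 0.16 (SE, adjusted p = 0.003). Its groups were apart by a narrow margin, since treated replicate 6 was at 7.15 and the highest vehicle liver at 7.06. Aen, a nuclease that takes part in apoptosis, rose by 0.80 ± 0.11 (SE, adjusted p = 0.000301), from 8.16 to 8.48 in vehicle and 8.83 to 9.54 in treated livers. The groups did not overlap, and 1 of its 4 probe sets passed. Polk, a polymerase that copies past bulky lesions in DNA, ranged from 7.26 to 8.0 in the treated livers (median 7.74) and from 6.79 to 7.20 in the vehicle livers (median 7.09). Here too the groups were apart, and it rose by 0.62 ± 0.12 (SE, adjusted p = 0.00978). Dglucy, a D-glutamate cyclase, rose by 0.97 ± 0.12 (SE, adjusted p = 0.000119). The Polk call likewise ended with the 12 arrays at 90 d alone (adjusted p = 0.0571).

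**Figure D1:**
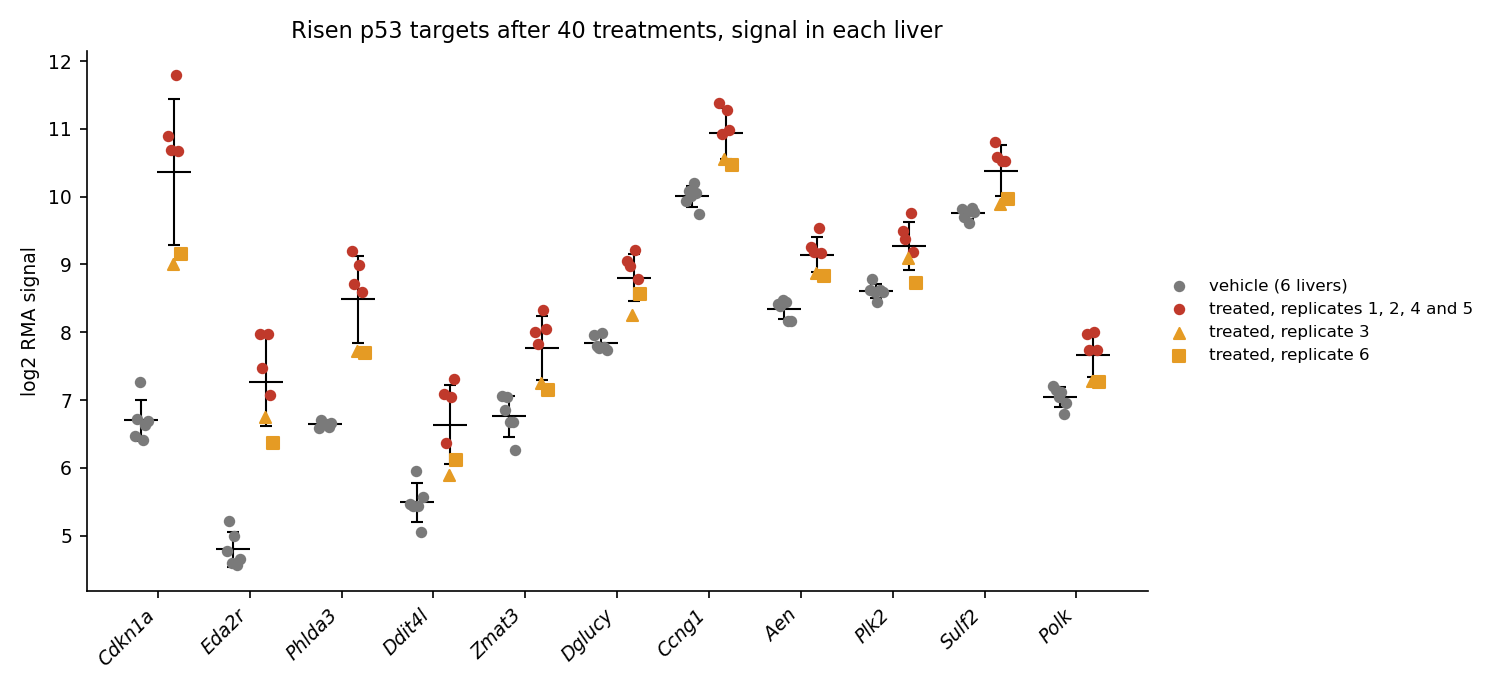
Log2 signal of the 11 risen p53 targets in each liver at 90 d, in order of their change; points are livers and black lines the mean and SD of 6. Treated replicates 3 (triangles) and 6 (squares) had the lowest 2 treated values for every gene shown.

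Several central p53 targets did not pass. Mdm2, the ubiquitin ligase that limits p53, ranged from 8.23 to 9.88 in the treated livers (median 9.38) and from 8.47 to 8.79 in the vehicle livers (median 8.72). Treated replicate 6 was below every vehicle liver and the other 5 treated livers above all of them, and the change was 0.60 ± 0.19 (SE, adjusted p = 0.216). Btg2, an antiproliferative factor, had treated livers from 7.86 to 8.71 and vehicle livers from 7.35 to 7.96, a change of 0.74 ± 0.23 (SE, adjusted p = 0.187). That is its brightest probe set. The dimmer one passed in the same limma fit, with 0.53 ± 0.10 (SE, adjusted p = 0.00875). Among the genes that trigger apoptosis, Bbc3 had 0.18 (adjusted p = 0.674), Pmaip1 0.08 (0.949) and Fas 0.10 (0.895), named here as textbook members of the list and not by the rule for named genes. Trp53 itself and the apoptosis gene Bax had no probe set paired with them alone. Trp53inp1, also named after its value was seen, missed the threshold with 0.83 ± 0.19 (SE, adjusted p = 0.05002). Without the 5 arrays with a Gapdh difference over 0.9, 18 targets rose: the same 11, and Apaf1, Btg2, Ckap2, Ddit4, Mdm2, Psrc1 and Trp53inp1, most of them likewise named for this count. Without treated replicate 6 alone 13 rose. In the fit without the 5 arrays Mdm2 had 0.80 (adjusted p = 0.0055) and Btg2 0.83 (0.0018). With the 12 arrays at 90 d alone 11 targets rose again, but Apaf1, Btg2 and Ddit4 took the places of Plk2, Polk and Sulf2; Btg2 then had an adjusted p of 0.0224.

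Matches to a p53 half-site were also looked for in the promoters of all genes that passed, the p53 targets included. The p53 half-site consensus is a palindromic motif of 10 bases, so a match on 1 strand is a match on the other. At least 1 match lay within the 300 bases around a start of 13 of 72 risen genes (18.1%), 3 of 31 fallen genes (9.68%) and 1242 of 14452 genes with a window (8.59%). Outside the p53 list it was 8 of 62 risen genes (12.9%). Among the risen p53 targets it was 5 of 10, namely Aen, Ccng1, Cdkn1a, Ddit4l and Polk. A match is a description of letters and does not show that p53 binds there. The stretches around 3 of these matches and around that of Siva1, a risen regulator of apoptosis that is on none of the lists and was chosen after its values were seen, are shown with the match in capitals. They come from RefSeq, GRCm38.p6: Ccng1 from chr11:40755442-40755491, minus strand; Polk from chr13:96519389-96519437, minus strand; Ddit4l from chr3:137623562-137623611, plus strand; and Siva1 from chr12:112644590-112644639, plus strand. All 4 lie before the start.
Ccng1: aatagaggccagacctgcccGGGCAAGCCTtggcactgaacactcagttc
Polk: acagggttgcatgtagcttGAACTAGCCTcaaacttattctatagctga
Ddit4l: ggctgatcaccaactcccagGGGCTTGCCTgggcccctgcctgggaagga
Siva1: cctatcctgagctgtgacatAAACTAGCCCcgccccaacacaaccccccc

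Treated replicates 3 and 6 changed less than the other 4 treated livers, in both directions. For each gene, the change of each treated liver from the vehicle mean was expressed as a percentage of that gene's mean change. Over the 91 risen genes the medians for treated replicates 1 to 6 were 123%, 120%, 65.6%, 116%, 111% and 61.7%. The 45 fallen genes gave 131%, 106%, 56.6%, 111%, 109% and 70.3%. Replicate 3 had the smallest change in 32 and replicate 6 in 41 of the 91 risen genes; for the 45 fallen genes the counts were 19 and 18. In all 11 risen p53 targets these livers had the 2 smallest changes. Their Gapdh 3′ minus 5′ values differed, at 0.21 for replicate 3 and 1.24 for replicate 6, and the part of RNA length in the smaller changes was not tested. The spread was larger among treated than among vehicle livers for 78 of the 91 risen and 34 of the 45 fallen genes, with a median ratio of SDs of 1.82, but also for 72.0% of all genes, with a median ratio of 1.33.

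**Figure D2:**
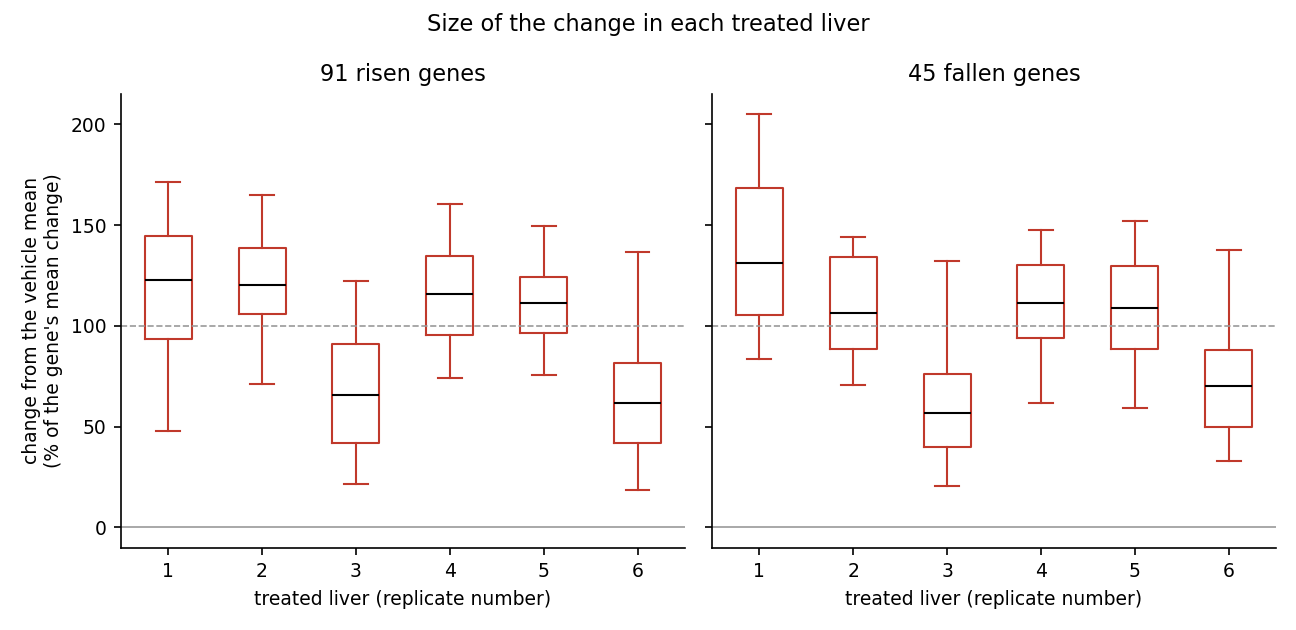
Change of each treated liver from the vehicle mean as a percentage of the gene's mean change (dashed line, 100%), for the 91 risen and 45 fallen genes; boxes give the median and quartiles over genes and whiskers the 5th to 95th percentile. The boxes of replicates 3 and 6 lie below the dashed line in both panels, with medians of 65.6% and 61.7% for rises.

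Most of the other large rises belonged to none of the lists. Cplane1, an effector of planar polarity needed for cilia, ranged from 8.61 to 10.11 in the treated livers (median 9.94) and from 6.08 to 6.94 in the vehicle livers (median 6.55). The groups were more than 1 log2 unit apart and the gene rose 8.24-fold (log2 fold change 3.04 ± 0.25 SE, adjusted p = 1.96e-07), although 3 of its 7 probe sets passed and 1 had the other sign. On the mean of all 7 its change was 1.22, adjusted p = 6.35e-06. Ddias, which protects cells from death after DNA damage, rose by 1.82 ± 0.29 (SE, adjusted p = 0.00218) and ranged from 5.43 to 7.58 in the treated livers (median 7.24) and from 4.75 to 5.53 in the vehicle livers (median 5.06). Treated replicate 6, at 5.43, was the only treated liver within the vehicle range. Cox6b2, the testis form of a cytochrome c oxidase subunit, rose by 1.56 ± 0.29 (SE, adjusted p = 0.00998); treated replicate 6 was at 5.32, within the vehicle range of 4.94 to 5.35, and treated replicate 1 reached 7.83. Scara3, a scavenger receptor, rose by 1.30 ± 0.24 (SE, adjusted p = 0.00917), with treated livers from 5.54 to 6.91 and vehicle livers from 4.71 to 5.89. Tmem45a, a membrane protein, rose by 1.18 ± 0.23 (SE, adjusted p = 0.0135), and its treated replicate 3 overlapped the vehicle range. Mgat5, which adds branches to N-glycans, rose by 1.01 ± 0.16 (SE, adjusted p = 0.00326). Aaas, a nucleoporin, rose by 0.96 ± 0.14 (SE, adjusted p = 0.000707). Tmem43, a nuclear envelope protein, rose by 0.83 ± 0.12 (SE, adjusted p = 0.000527). For Mgat5, Aaas and Tmem43 the groups did not overlap. The call of Tmem45a ended without 1 of the 23 arrays (adjusted p 0.0511). Those of Cox6b2 and Tmem45a ended with the 12 arrays at 90 d alone (adjusted p 0.0729 and 0.0516).

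Smaller rises were seen in genes of several roles. Dyrk3, a kinase that dissolves stress granules, rose by 0.69 ± 0.10 (SE, adjusted p = 0.000706). Eif2d, a translation initiation factor, rose by 0.53, H2ac19, a histone H2A gene, by 0.39, and Mbl2, a mannose-binding lectin that hepatocytes secrete, by 0.61. The last 3 were named after their values were seen, because they passed under every alternative. These 4 genes had non-overlapping groups and passed in each fit that left out 1 array. Notch1, a receptor of cell fate signalling, rose by 0.49 ± 0.09 (SE), and Spint2, an inhibitor of serine proteases, by 0.35 ± 0.06 (SE), both likewise named after their values were seen. Ptgr1, a reductase of prostaglandins and alkenals, had 0.78 ± 0.18 (SE, adjusted p = 0.0462) with non-overlapping groups, and the uncharacterised 1810055G02Rik 0.75 ± 0.16 (SE, adjusted p = 0.033). Gas6, a ligand of the TAM receptors, had 0.94 ± 0.20 (SE, adjusted p = 0.0272), Ppp1r14a, an inhibitor of myosin phosphatase, 1.13 ± 0.23 (SE, adjusted p = 0.0213), and Gyg, the protein primer of glycogen, 0.85 ± 0.19 (SE, adjusted p = 0.0408). Their calls ended for Gas6 without any 1 of 7 arrays (adjusted p up to 0.0822), Ppp1r14a without any 1 of 3 arrays (adjusted p up to 0.0713), Gyg without any 1 of 14 arrays (adjusted p up to 0.119), Ptgr1 without any 1 of 19 arrays (adjusted p up to 0.132) and 1810055G02Rik without any 1 of 9 arrays (adjusted p up to 0.0981). Gas6 did not follow the order of the p53 targets: its highest treated value, 10.43, was that of replicate 3. The second of its 2 probe sets had a change of -0.11. With the 12 arrays at 90 d alone the calls of Notch1 (0.0649), Ptgr1 (0.102) and Gyg (0.0584) ended, with the adjusted p in parentheses.

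Of 16 CDK inhibitors and genes of growth arrest, 2 rose and 1 fell, where 0.500% of all genes rose and 0.247% fell. Besides Cdkn1a, the riser was Cdkn2c, which encodes the CDK4 and CDK6 inhibitor p18, with treated livers from 8.02 to 8.60 and vehicle livers from 7.34 to 7.68. The groups did not overlap, and it rose by 0.74 ± 0.14 (SE, adjusted p = 0.0128). Gas1, a membrane protein that accompanies growth arrest, fell by 0.53 (SE 0.12, adjusted p = 0.0437). Of 41 cell cycle genes 1 rose, Stmn1, a regulator of microtubules, which rose by 0.76 ± 0.14 (SE, adjusted p = 0.0121); the list's median was 0.15, with 36 members above 0, and 16 had an unadjusted p under 0.05, all of them higher, against 1424 higher genes of all 18193 (7.83%). Mki67, the usual marker of dividing cells, had treated livers from 5.04 to 6.73 and vehicle livers from 4.98 to 5.36, a change of 0.55 ± 0.24 (SE, adjusted p = 0.426). Its highest values were those of treated replicates 3, 5 and 6, the livers that also had the highest macrophage markers among the treated. Outside the lists, Mybl1, a transcription factor related to B-Myb, rose by 0.82 ± 0.14 (SE, adjusted p = 0.00672) at a low signal of 4.11 to 5.35, and Cenpm, a centromere protein, rose by 0.82 ± 0.18 (SE, adjusted p = 0.041). The calls of Gas1 and Cenpm ended without any 1 of 15 and 14 arrays (adjusted p up to 0.115 and 0.113).

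Among DNA repair genes, 3 rose and none fell, beside 0.500% and 0.247% of all genes. Mgmt, which takes alkyl groups off guanine, ranged from 9.46 to 9.84 in the treated livers (median 9.62) and from 9.01 to 9.43 in the vehicle livers (median 9.09). The groups were apart by 0.03, since vehicle replicate 4 was high, and the gene rose by 0.50 ± 0.08 (SE, adjusted p = 0.00196). It was the only riser of 19 genes of base excision and alkylation repair. Among 35 genes of double strand break repair 1 rose, Rpa1, which coats single-stranded DNA (0.32 ± 0.07 SE, adjusted p = 0.0462). Polk, already given as a p53 target, was the only riser of 15 translesion genes, a call lost with the 12 arrays at 90 d alone, and Rev1, another translesion polymerase, had 0.40 ± 0.15 (SE, adjusted p = 0.312). None of 22 nucleotide excision repair genes passed, and 4 were higher at an unadjusted p under 0.05 (7.83% of all genes were), among them Ercc3, 0.34 (adjusted p = 0.0793), Ercc5, 0.23 (adjusted p = 0.35), and Lig1, 0.21 (adjusted p = 0.432). The Rpa1 call ended with those 12 arrays (adjusted p = 0.0571), without any 1 of 18 arrays (adjusted p up to 0.142) and on the mean of its 2 probe sets (0.27, adjusted p = 0.0616). In apoptosis outside the p53 list, 1 of 30 genes rose, Endog, a mitochondrial nuclease, which rose by 0.69 ± 0.10 (SE, adjusted p = 0.000537) with non-overlapping groups.

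The lists of xenobiotic and antioxidant defence held 2 genes that passed. Of 36 genes regulated by NRF2, the sensor of electrophiles, 2 rose: Nqo1, a quinone reductase, by 0.63 ± 0.13 (SE, adjusted p = 0.0241) and Srxn1, sulfiredoxin, by 0.45 ± 0.10 (SE, adjusted p = 0.0363). The list's median was 0.18 and 28 members were above 0. Over the list, the mean change was 0.35, 0.31, 0.02, 0.32, 0.23 and -0.02 in treated replicates 1 to 6, so replicates 3 and 6 lay within the vehicle range of -0.09 to 0.05 and the other 4 above it. At an unadjusted p under 0.05, 14 members were higher and 1 lower, against 1424 (7.83%) and 772 (4.24%) of all 18193 genes; past the adjusted threshold, 0.500% of all genes rose. Gstm3 and Ephx1, which the rule named whatever their result, did not pass: Gstm3, a glutathione transferase, had 0.67 ± 0.21 (SE, adjusted p = 0.191), and Ephx1, microsomal epoxide hydrolase, 0.45 ± 0.12 (SE, adjusted p = 0.0991). In Gstm3, treated replicates 3 and 6 lay at 11.32 and 11.35, inside the vehicle range of 11.26 to 11.62, and the other 4 above it. The calls ended for Nqo1 without any 1 of 8 arrays (adjusted p up to 0.0764) and Srxn1 without any 1 of 10 arrays (adjusted p up to 0.111), and that of Srxn1 also on the mean of its 4 probe sets (0.19, adjusted p = 0.351). None of 24 CAR and PXR responsive genes passed (median -0.07; 6 higher and 3 lower at an unadjusted p under 0.05), and of 9 genes of the aryl hydrocarbon receptor Nqo1 alone did. Neither Nqo1 nor Srxn1 passed with the 12 arrays at 90 d alone (adjusted p = 0.0962 and 0.101).

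The enzymes that activate 1-MIM-OH were measured only through mouse probe sets. Mouse Sult1a1 ranged from 12.31 to 13.13 in the treated livers (median 12.83) and from 12.46 to 13.02 in the vehicle livers (median 12.78). The groups overlapped almost fully, with a change of 0.00 ± 0.11 (SE, adjusted p = 0.997). Whether transcripts of the human transgenes bind to that probe set was not tested. Among 30 sulfotransferases and dehydrogenases 1 passed, beside 0.748% of all genes. Sult1c2, a cytosolic sulfotransferase, fell by 0.59 (SE 0.11, adjusted p = 0.00917), with treated livers from 6.61 to 7.14 below all vehicle livers, 7.24 to 7.69. Of the 30, 1 was higher and 4 were lower at an unadjusted p under 0.05 (3.33% and 13.3%), against 7.83% and 4.24% of all genes.

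The largest fall was that of Fhit, a hydrolase of diadenosine triphosphate whose gene spans a common fragile site. It ranged from 5.70 to 8.35 in the treated livers (median 6.48) and from 8.83 to 9.43 in the vehicle livers (median 9.18). No treated liver reached the vehicle range, and replicate 6, at 8.35, came closest. The signal fell 5.3-fold (log2 fold change -2.41, SE 0.32, adjusted p = 0.000301). Wwox, an oxidoreductase at another fragile site, ranged from 5.33 to 6.41 in the treated livers (median 5.89) and from 6.62 to 7.37 in the vehicle livers (median 7.10). Its groups did not overlap and it fell by 1.13 (SE 0.16, adjusted p = 0.000515), although 1 of its 4 probe sets passed and another had a change of 0.33. Fras1, an extracellular matrix protein, ranged from 5.06 to 5.90 in the treated livers (median 5.40) and from 6.39 to 7.12 in the vehicle livers (median 6.52) and fell by 1.21 (SE 0.16, adjusted p = 0.000252), again without overlap; its other probe set had a change of 0.13. Tcf24, a basic helix-loop-helix transcription factor, ranged from 5.74 to 8.18 in the treated livers (median 6.78) and from 8.51 to 9.0 in the vehicle livers (median 8.79). Treated replicate 3 was closest to the vehicle livers, and the gene fell by 1.96 (SE 0.25, adjusted p = 0.000207).

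Enzymes of liver metabolism were among the falls. Cyp39a1, an oxysterol hydroxylase of bile acid synthesis, ranged from 5.44 to 6.53 in the treated livers (median 5.78) and from 6.60 to 7.50 in the vehicle livers (median 6.90). Here replicates 3 and 6 were the 2 lowest treated livers, the groups did not overlap, and the gene fell by 1.15 (SE 0.18, adjusted p = 0.00274). Csad, which makes hypotaurine for taurine, ranged from 9.73 to 11.74 in the treated livers (median 11.09) and from 11.94 to 12.49 in the vehicle livers (median 12.14) and fell by 1.14 (SE 0.24, adjusted p = 0.0243). Treated replicate 1 was the lowest, at 9.73. Dnase2a, the lysosomal nuclease that digests DNA of engulfed cells, ranged from 10.69 to 12.19 in the treated livers (median 11.73) and from 12.49 to 12.74 in the vehicle livers (median 12.60) and fell by 1.06 (SE 0.20, adjusted p = 0.0123), with no overlap. Aqp4, a water channel, fell by 1.34 (SE 0.31, adjusted p = 0.0463); treated replicate 3, at 7.47, overlapped the lowest vehicle liver, 7.35. Steap2, a metalloreductase, fell by 0.95 (SE 0.15, adjusted p = 0.00198), and Obp2a, a lipocalin, fell by 0.84 (SE 0.12, adjusted p = 0.00107). Cyp2u1, a fatty acid hydroxylase, and Cry1, a repressor of the circadian clock, had -0.65 (adjusted p = 0.0408) and -0.52 (adjusted p = 0.0462). Srsf3, a splicing factor, had -0.66 (adjusted p = 0.0294). The calls ended for Aqp4 without any 1 of 18 arrays (adjusted p up to 0.126), Csad without any 1 of 4 arrays (adjusted p up to 0.0682), Cyp2u1 without any 1 of 15 arrays (adjusted p up to 0.101), Cry1 without any 1 of 17 arrays (adjusted p up to 0.139) and Srsf3 without any 1 of 8 arrays (adjusted p up to 0.0979), and that of Srsf3 on the mean of its 6 probe sets (-0.43, adjusted p = 0.0793). Fits to the 12 arrays at 90 d alone ended the calls of Csad (0.0805), Dnase2a (0.0504), Cry1 (0.103) and Srsf3 (0.0715), again with the adjusted p.

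**Figure D3:**
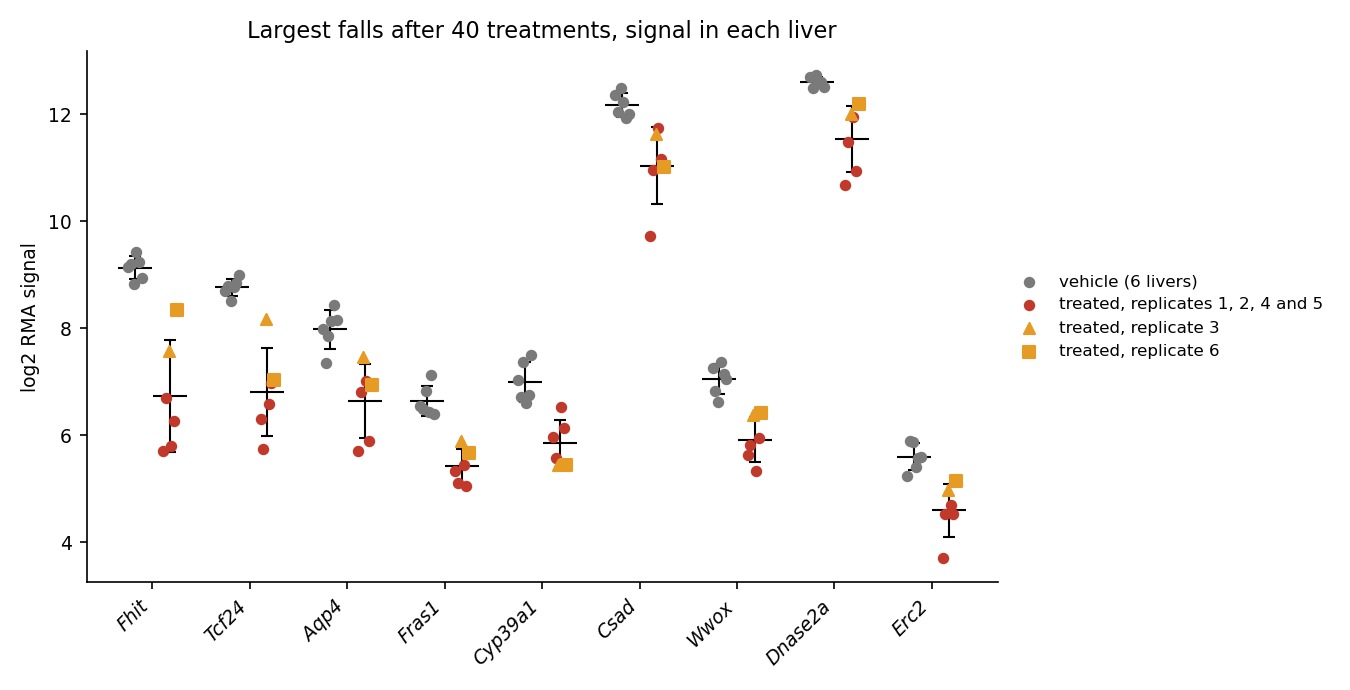
Log2 signal of the 9 genes that fell by 2-fold or more, in each liver at 90 d; points are livers and black lines the mean and SD of 6. In Fhit, Tcf24, Fras1, Cyp39a1, Csad, Wwox, Dnase2a and Erc2 all treated livers lie below all vehicle livers, and in Aqp4 treated replicate 3 (triangle) overlaps them.

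Fallen genes were long. The gene length, taken as the RefSeq span in GRCm38.p6, had a median of 149 kb for the 45 fallen genes, 15 kb for the 91 risen genes and 20.3 kb for 18029 genes with a length. Genes of 200 kb or more made up 46.7% of the fallen (21 of 45), 6.59% of the risen (6 of 91) and 5.0% of all genes. By length, 0.0923% of genes under 10 kb fell, 0.122% between 10 and 30 kb, 0.172% between 30 and 100 kb, 0.298% between 100 and 200 kb, 1.89% between 200 and 400 kb and 3.13% of those of 400 kb or more (10 of 319), beside 0.247% of all genes. The share that rose had no such order, 0.701% in the shortest and 0.627% in the longest class. This pattern was seen after the fact and has no test here. Without the 5 arrays with a Gapdh difference over 0.9, 30.4% of 135 fallen genes were of 200 kb or more, and without treated replicate 6 alone 42.4% of 66.

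**Figure D4:**
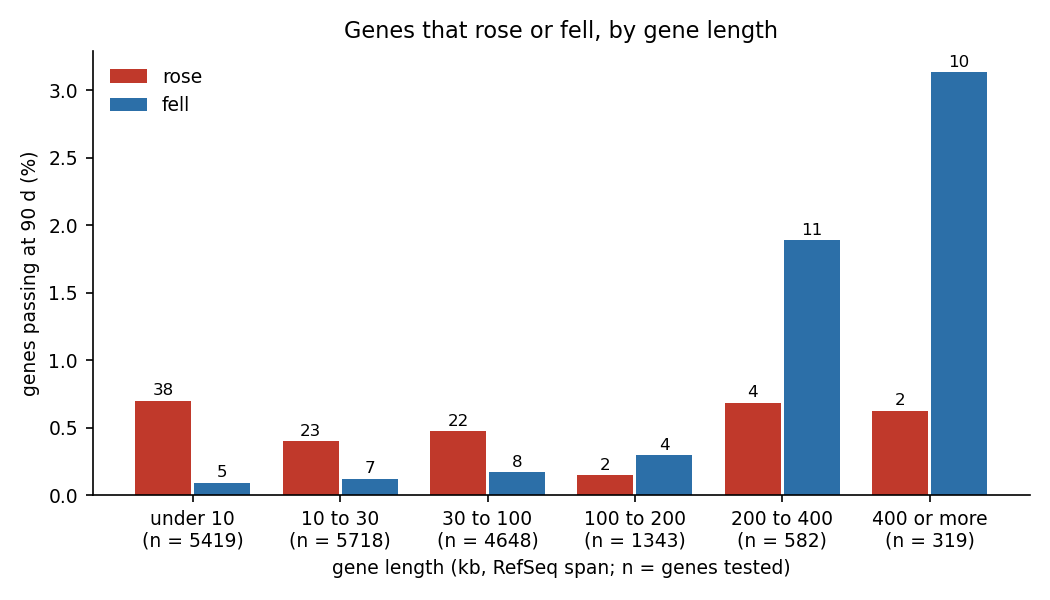
Percentage of genes that rose (red) or fell (blue) at 90 d in each class of gene length; numbers over the bars count genes and n is the number tested. The share that fell reaches 3.13% for genes of 400 kb or more.

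The 10 longest fallen genes encode proteins of varied known roles. Besides Fhit, Fras1 and Wwox they were Erc2, a scaffold of presynaptic zones (-1.0, adjusted p = 0.00886), Trhde, a peptidase that degrades thyrotropin-releasing hormone (-0.88, adjusted p = 0.0136), Pard3b, a polarity protein (-0.82, adjusted p = 0.00917), Cpq, a carboxypeptidase (-0.75, adjusted p = 0.0148), Gmds, an enzyme of GDP-fucose synthesis (-0.68, adjusted p = 0.0315), Smyd3, a lysine methyltransferase (-0.67, adjusted p = 0.000497), and Ncam2, an adhesion molecule (-0.66, adjusted p = 0.0125). Trhde and Gmds were dim, with treated livers below 5 in log2 signal. Erc2 was also dim, with treated livers at 3.70 to 5.14. Exoc4, a subunit of the exocyst with a span of 725 kb, went the other way and rose by 0.56 ± 0.12 (SE, adjusted p = 0.0286). Of 37 measured genes known from very long or fragile loci, Fhit, Wwox, Pard3b and Gmds fell and Exoc4 rose, and the list's median was -0.05. At an unadjusted p under 0.05, 10 were lower and 4 higher (27% and 10.8%), against 4.24% and 7.83% of all genes. Past the adjusted threshold, 0.247% of all genes fell and 0.500% rose. Among genes with a mean signal of at least 6, the 117 of 400 kb or more had medians of -0.17, -0.07, -0.09, -0.08, -0.12 and 0.01 in treated replicates 1 to 6. The vehicle medians lay between -0.02 and 0.03, so 5 treated livers were below them and replicate 6 was within them. Over all 319 genes of that length, dim ones included, the medians were 0.05, -0.02, -0.03, -0.03, -0.02 and 0.00, against a vehicle range of -0.03 to 0.02. There replicate 1 was above every vehicle liver, replicates 3 and 4 were below them by a narrow margin, and the other 3 were within, so the position of 5 livers below the vehicle range was that of the brighter genes only. The calls ended for Gmds without any 1 of 7 arrays (adjusted p up to 0.1) and Exoc4 without any 1 of 7 arrays (adjusted p up to 0.0858). In the fit to the 12 arrays at 90 d, Trhde (0.0676), Cpq (0.0516), Gmds (0.0669) and Exoc4 (0.0867) no longer passed, with the adjusted p in parentheses.

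Other fallen genes of 200 kb or more were Atg10, an enzyme of autophagosome formation (-1.0, adjusted p = 0.033), Pik3c2g, a class II phosphoinositide kinase of liver (-0.77, adjusted p = 0.0112), Carmil1, a regulator of actin capping (-0.75, adjusted p = 0.0436), Rnls, renalase (-0.64, adjusted p = 0.00694), Chchd6, a protein of mitochondrial cristae (-0.59, adjusted p = 0.00683), and Pola1, the catalytic subunit of DNA polymerase alpha (-0.56, adjusted p = 0.0439). Clybl, Gtdc1, Ldlrad3, Scaper and Zbtb7c made up the remaining 5. In Atg10, Pik3c2g and Rnls all treated livers were below all vehicle livers. The treated replicate 3 value of Pola1, 7.29, was above all its vehicle livers, 7.12 to 7.23. The calls ended for Atg10 without any 1 of 10 arrays (adjusted p up to 0.0802), Carmil1 without any 1 of 18 arrays (adjusted p up to 0.116) and Pola1 without any 1 of 18 arrays (adjusted p up to 0.12), and that of Pola1 on the mean of its 2 probe sets (-0.28, adjusted p = 0.0937). Klhl13, an adaptor of a ubiquitin ligase with a span of 146 kb, fell by 0.75 (SE 0.10, adjusted p = 0.0004). With the 12 arrays at 90 d alone, 8 of the genes of 200 kb or more named here did not pass, with adjusted p from 0.0516 (Zbtb7c) to 0.133 (Carmil1): Atg10, Carmil1, Clybl, Gtdc1, Pola1, Rnls, Scaper and Zbtb7c.

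Lists of hepatocyte metabolism held few other genes that passed, where 0.748% of all genes did. None of the measured genes passed on the lists of PPAR alpha targets (36 genes, median -0.01), fatty acid synthesis (28 genes, -0.06), cholesterol synthesis (21 genes, 0.06), bile acid synthesis and transport (31 genes, -0.02), glucose metabolism (26 genes, 0.00), unfolded protein stress (38 genes, -0.03) and heat shock and immediate early genes (25 genes, 0.04). At an unadjusted p under 0.05 these lists held 5, 3, 0, 5, 2, 5 and 1 genes, in that order, against 2196 of all 18193 genes (12.1%). Of the bile acid genes, Cyp7a1, the rate-limiting enzyme, had -0.68 (adjusted p = 0.695), and the phospholipid pump Abcb4 0.43 (adjusted p = 0.0611). The PPAR alpha target Acot3 had -1.47 (adjusted p = 0.188), Cyp4a14 -0.87 (adjusted p = 0.76), and Abcd2, a peroxisomal transporter, -0.66 (adjusted p = 0.126). In Abcd2 the treated livers, 5.17 to 5.64, lay below all vehicle livers, 5.75 to 6.57. Fasn, fatty acid synthase, had -0.43 (adjusted p = 0.564), Lpin1, a phosphatidate phosphatase, 0.64 (adjusted p = 0.317), and Creld2, an endoplasmic reticulum protein, -0.80 (adjusted p = 0.628). Apoa4, an apolipoprotein, was the riser among 22 periportal genes (0.69 ± 0.15 SE, adjusted p = 0.0292), while none of 25 Wnt and pericentral genes passed (6 with an unadjusted p under 0.05). Of 24 male-biased genes Nat8, an acetyltransferase, rose by 0.67 ± 0.12 (SE, adjusted p = 0.00833), and Cyp2u1 fell. Of the 24, 3 were higher and 6 lower at an unadjusted p under 0.05 (12.5% and 25%), against 7.83% and 4.24% of all genes. The list's median was -0.08. None of 21 female-biased genes passed (4 with an unadjusted p under 0.05). Id1, a BMP target, had -0.08 ± 0.24 (SE, adjusted p = 0.942), and none of 21 BMP and SMAD targets passed (4 with an unadjusted p under 0.05). The Apoa4 call ended without any 1 of 7 arrays (adjusted p up to 0.084). It also ended with the 12 arrays at 90 d alone (adjusted p = 0.117).

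Inflammatory genes and leukocyte markers were high in some livers of both groups. Lcn2, lipocalin 2, was at 7.89, 7.17, 12.25, 7.0, 9.66 and 11.47 in treated replicates 1 to 6 and at 5.82, 11.09, 6.04, 7.48, 6.55 and 6.65 in vehicle replicates 1 to 6. Treated replicates 3, 5 and 6 and vehicle replicate 2 were high, so the groups overlapped, and the difference was 1.97 ± 1.20 (SE, adjusted p = 0.613). Saa1, an acute phase protein of the liver, showed the same 4 livers high and differed by 0.89 ± 0.85 (SE, adjusted p = 0.775). Over the 32 acute phase genes the mean change was -0.20, -0.21, 1.45, -0.15, 0.47 and 0.97 in treated replicates 1 to 6 and 1.04 in vehicle replicate 2. The other 5 vehicle livers lay between -0.41 and 0.11.

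Only Serpina3n passed among the acute phase genes, an inhibitor of serine proteases, which rose by 0.55 ± 0.12 (SE, adjusted p = 0.0408) with non-overlapping groups; the list's median was 0.35 and 27 members were above 0. Of 37 interferon genes 0 passed (median 0.25, 32 above 0, 6 with an unadjusted p under 0.05), and the largest changes were those of the immunoproteasome subunits Psmb8, 0.85 (adjusted p = 0.522), and Psmb9, 0.75 (adjusted p = 0.602), and of Zbp1, a nucleic acid sensor, 0.81 (adjusted p = 0.541). Il1r1, the receptor of interleukin 1, rose by 0.71 ± 0.16 (SE, adjusted p = 0.0408), and its partner chain Il1rap, named after its value was seen, fell by 0.38 (SE 0.07, adjusted p = 0.0123). Over all genes, 0.748% passed, 12.1% had an unadjusted p under 0.05 and 57.3% were above 0. Of 28 Kupffer cell and macrophage markers 0 passed (median 0.33, 25 above 0, 3 with an unadjusted p under 0.05). Their mean change followed the same livers, 0.94, 0.74 and 0.51 in treated replicates 3, 5 and 6 and 0.70 in vehicle replicate 2. Marco, a macrophage scavenger receptor, had 1.11 (adjusted p = 0.667), Cd14 0.61 (adjusted p = 0.653) and Cd163 0.61 (adjusted p = 0.374). The part of leukocyte numbers in the inflammatory signals was not tested. The calls ended for Serpina3n without any 1 of 13 arrays (adjusted p up to 0.111) and Il1r1 without any 1 of 14 arrays (adjusted p up to 0.117), and that of Il1rap on the mean of its 5 probe sets (-0.16, adjusted p = 0.265). Il1r1 also did not pass with the 12 arrays at 90 d alone (adjusted p = 0.0794).

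Markers of other cell types were counted beside the 0.748% of all genes that passed. None passed among 21 T and NK cell genes (median 0.11), 16 B cell genes (0.04), 15 neutrophil genes (0.09), 30 stellate cell and fibrosis genes (0.10), 28 endothelial genes (0.06) and 11 erythroid genes (0.12). These lists held 3, 3, 0, 5, 2 and 3 members with an unadjusted p under 0.05, in that order, where 12.1% of all genes had one. S100a8 and S100a9, the calprotectin genes of neutrophils, had 0.88 (adjusted p = 0.786) and 0.89 (adjusted p = 0.758), and Cd3d, a T cell receptor chain, 0.34 (adjusted p = 0.461). The matrix signalling gene Ccn2 on the stellate list had 1.10 (adjusted p = 0.319), and Timp1, an inhibitor of matrix proteases, 0.52 (adjusted p = 0.0557). On the list of 22 cholangiocyte and progenitor genes 2 rose (0.500% of all genes did), Anxa13, an annexin of epithelia, by 0.95 ± 0.17 (SE, adjusted p = 0.00672), and St14, the protease matriptase, by 0.65 ± 0.12 (SE, adjusted p = 0.0123). Both were dim, with treated livers between 4.86 and 6.62. The defining markers of cholangiocytes Krt19, Krt7 and Epcam did not pass, with 0.16, 0.38 and 0.15, and Sox9 had -0.33. The median of the list was 0.15. It held 7 higher and 1 lower gene at an unadjusted p under 0.05 (31.8% and 4.55%), against 7.83% and 4.24% of all genes. With the 12 arrays at 90 d alone neither call held (adjusted p = 0.0645 for Anxa13 and 0.0555 for St14).

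The question in the title was addressed with 41 measured markers of rodent genotoxic hepatocarcinogens, compiled from general knowledge with earlier results of these data known. Of these, 7 rose (Cdkn1a, Ccng1, Phlda3, Aen, Mgmt, Nqo1 and Stmn1), 1 fell (Fhit) and 33 did not pass; 0.500% of all genes rose and 0.247% fell. The median change was 0.33, with 38 members above 0. The first 4 of the risers are p53 targets and were counted there too. The mean change over the 41 was 0.54, 0.40, 0.42, 0.49, 0.54 and 0.20 in treated replicates 1 to 6, and every vehicle liver was between -0.09 and 0.12. Of 29 oncofetal and liver tumour genes 1 rose, Bex1, a small X-linked protein, which ranged from 4.42 to 6.01 in the treated livers (median 5.28) and from 3.53 to 4.08 in the vehicle livers (median 3.80). Its groups did not overlap, with replicates 3 and 6 the lowest treated livers, and it rose by 1.39 ± 0.24 (SE, adjusted p = 0.00691). Afp, alpha-fetoprotein, had 0.19 ± 0.12 (SE, adjusted p = 0.612).

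The 90 d changes were set against those after 10 treatments, a comparison with its own treated and vehicle livers in which 213 genes passed (1.17% of genes tested, 0.577% higher and 0.594% lower). Of the 136 genes, 37 passed at both times, 16 risen and 21 fallen, which is 27.2% of the 90 d genes and 17.4% of the 21 d genes. Only 3 of the 136 had the other sign at 21 d. The risen genes had a median change of 0.57 at 90 d and 0.30 at 21 d, and the fallen genes -0.65 and -0.54; since the genes were chosen for passing at 90 d, a larger value at that time is partly set by the choice. The treated 21 d group held 4 of the 5 arrays with a Gapdh difference over 0.9, and the part of RNA length in the 21 d values was not tested.

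No probe set passed a test of the difference between the 90 d and the 21 d effects, with limma (smallest adjusted p 0.492; 4320 of 45037 probe sets had an unadjusted p under 0.05). Without replicate 2 of the treated 21 d group 53 passed, and without the 5 arrays with a Gapdh difference over 0.9 there were 6. Of the 136 genes, 49 had an unadjusted p under 0.05, 37 risen and 12 fallen. Since these genes were chosen for passing at 90 d, that count and the single-gene p-values below are partly set by the choice. Cdkn1a had a change of 3.67 at 90 d and 2.60 at 21 d (difference 1.07 ± 0.49 SE, unadjusted p = 0.0403). Cplane1 had 3.04 at 90 d and 1.62 at 21 d (difference 1.43 ± 0.36 SE, unadjusted p = 0.000526), and Eda2r 2.47 at 90 d and 0.87 at 21 d (difference 1.59 ± 0.39 SE, unadjusted p = 0.000397). Phlda3 had 1.84 at 90 d and 1.17 at 21 d, and passed at both times. Cdkn2c had 0.74 at 90 d and 0.07 at 21 d, Stmn1 0.76 at 90 d and 0.16 at 21 d and Bex1 1.39 at 90 d and 0.18 at 21 d. For Cdkn2c the vehicle mean was 8.26 at 21 d and 7.51 at 90 d, and the treated mean 8.32 at 21 d and 8.25 at 90 d. Among the falls Tcf24 had -1.96 at 90 d and -0.79 at 21 d (difference -1.18 ± 0.36 SE, unadjusted p = 0.00358) and Aqp4 -1.34 at 90 d and -0.20 at 21 d. Fhit had -2.41 at 90 d and -2.51 at 21 d (difference 0.11 ± 0.46 SE, unadjusted p = 0.822). Of the 21 fallen genes of 200 kb or more 12 also passed at 21 d, and of the other 24 fallen genes 9 did.

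**Figure D5:**
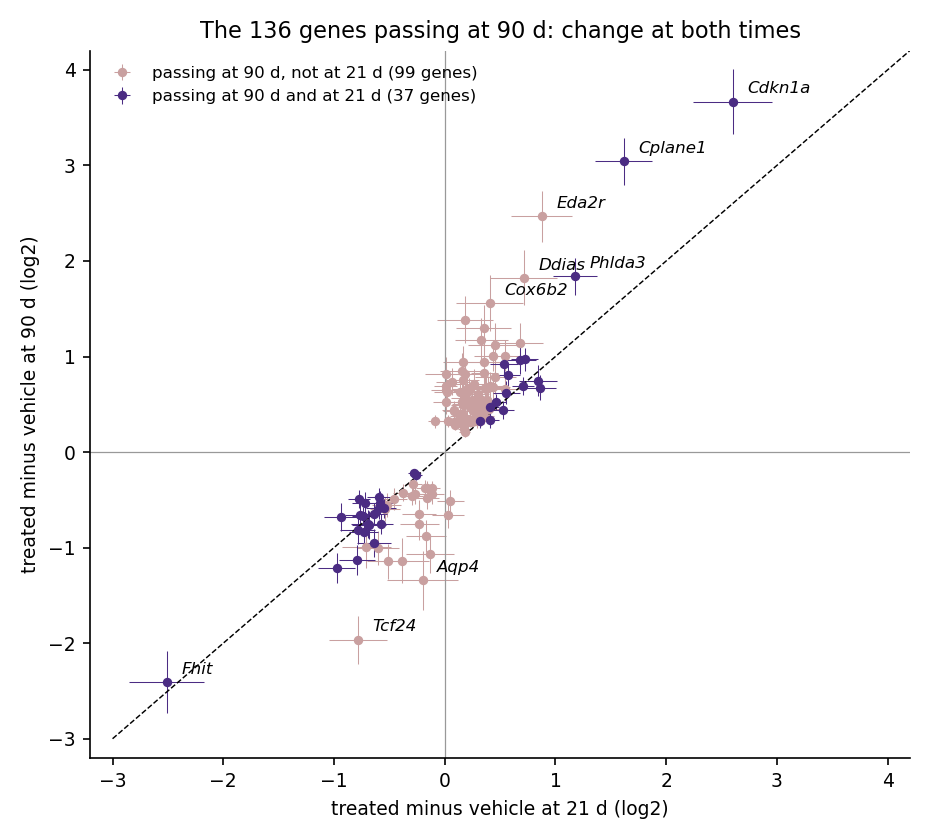
Treated minus vehicle difference (log2) at 21 d (x axis) and 90 d (y axis) for the 136 genes passing at 90 d, with standard errors; dark points are the 37 genes passing at both times and the dashed line marks equal change. Cdkn1a, Cplane1 and Eda2r lie above the line and Fhit on it.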

How the data were processed

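The authors hybridised liver RNA to Affymetrix Mouse Genome 430 2.0 arrays. The submitters' processing notes name RMA and Partek; their versions, in the sources used here, are not given. The deposited values are log2 signals; the base follows from their range, 2.47 to 15.41 at 90 d, and is stated in no label read here. Per the labels, each array is 1 animal, and 1 treated 21 d array was left out by the submitters for hybridisation artefacts. Arrays carry no read depth, so the number of livers limits the precision.

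Of 45101 probe sets, 64 controls were left out. The other 45037 were fitted with limma 3.58.1 (R 4.3.3, lmFit and eBayes) with a mean for each of 4 groups over all 23 arrays, and p-values were adjusted by Benjamini and Hochberg's method at a threshold of 0.05. A gene took its brightest probe set among those annotated to it alone: 34945 probe sets named 1 gene, 932 several and 9160 none. That gave 18193 genes. The annotation's symbols were matched to RefSeq, and 34741 probe sets had an entry. Probe sets that share transcripts with gene copies were not separated.

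Named genes were the 30 largest rises and 30 largest falls among genes that passed, list members that passed, up to 3 members with the largest change of lists where none passed, and a short list named whatever the result; others are marked in the text or are defining markers. The members and lists were chosen with earlier results of these data known. The fit was run on simulated data with independent normal noise of equal spread in every group. The larger spread of the treated livers and the effects of single arrays were not simulated. Alternatives were the 90 d arrays alone, replicate number as a block, a signal filter, recentring, quantile scaling, trend and robust fitting, array weights, probe set means per gene, a Gapdh covariate, leaving out 5 arrays, and leaving out each array.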

Additional observations from a re-analysis of the deposited data

Results flagged for a closer look

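In 4 of 78 groups of livers tested, 1 liver lay far from the other 5 by Dixon's criterion, which chance meets in about 1 group in 20. The groups covered 37 genes and the 3′ minus 5′ controls of Gapdh and beta-actin. No control value was flagged, that of Gapdh in treated replicate 6 included. Vehicle replicate 3 had the highest Cdkn1a signal of its group, 7.27, with the next at 6.72. In Mgmt, vehicle replicate 4 was highest at 9.43, with the next at 9.13. In Btg2, vehicle replicate 2 was highest at 7.96, with the next at 7.56. In Id1, vehicle replicate 4 was lowest at 8.72, with the next at 9.62.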

How the results depend on the processing

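The 226 probe sets at 90 d became 149 with the 12 arrays at 90 d alone, 504 with the Gapdh 3′ minus 5′ value as a covariate, 761 without the 5 arrays over 0.9, 463 with array weights, and 114 to 389 when 1 array was left out. Replicate number as a block gave 44 probe sets and 7 risen p53 targets in place of 11. For treated and vehicle livers with the same number, the deviations from the group means correlated negatively in every case, from -0.358 to -0.139 over both times. What the number stands for was not tested. Without the 5 arrays 18 p53 targets rose, and the range with 1 array left out was 11 to 15. The difference between times gave 6 probe sets without the 5 arrays, in place of 0, and 0 to 53 with 1 array left out. The Gapdh difference of 0.03 turned to -0.11 without treated replicate 6 and ranged from -0.11 to 0.11; with beta-actin it was -0.0467. The Sult1a1 change turned sign with recentring (-0.0033), with quantile scaling (-0.00279) and with 1 array left out (-0.0647 to 0.0993), and that of Id1 with 1 array left out (-0.277 to 0.00267). Of the 136 genes none reversed; 69 were lost with the 12 arrays, Plk2, Polk and Sulf2 among them while Apaf1, Btg2 and Ddit4 passed, 107 with the block, 26 with recentring and 20 with probe set means per gene. The cause of these shifts was not tested. Signals near 4 are close to the array's floor, where changes are compressed.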
